A study of Mus musculus with 2 samples.

Results

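The regions described here are 4 segments of mouse chromosome 10, 497.27 kb in all, in which called sites of open chromatin lie unusually close together in adipocytes made from 3T3-L1 cells. They were chosen by measured values, namely the density and the deposited height of the peaks, so those 2 quantities are given as descriptions and were not tested. The members are all peaks whose centres lie in the segments and all hotspots that overlap the segments. In replicate 1 these were 938 of 133695 peaks and 414 of 117685 hotspots on the 21 assembled chromosomes. In replicate 2 they were 1001 of 216556 peaks and 373 of 185029 hotspots. In mm10 coordinates, segment 1 is chr10:107205456-107256765, segment 2 chr10:117280001-117290000, segment 3 chr10:117376116-117799925 and segment 4 chr10:118611036-118623185. The 100 kb on each side of each segment, less the segments themselves, served as the flanks and held 43 and 81 peaks.

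The study profiled 1 group with DNase-seq, which sequences DNA freed by the enzyme DNase I from open chromatin. The group consisted of 2 libraries of adipocytes at day 8 of differentiation from 3T3-L1, an established mouse preadipocyte line, with no genetic change or further treatment named and with age and sex not recorded. The labels number them as biological replicates 1 and 2 with 1 donor record, give the strain as C57BL/6J, although 3T3-L1 is generally described as of Swiss origin, and name no undifferentiated control. With 1 group there is no contrast between conditions, so no test was made, and the error of each value is the spread between these 2 libraries. Promoters of 9 of 10 adipocyte genes had a peak in both libraries (all but Lep), as had 5 of 6 preadipocyte or fibroblast genes (all but Dlk1). Of 8 myeloid, 6 T and NK cell and 4 endothelial genes, 1 had such a peak, the myeloid gene Spi1. No share over all coding genes was taken beside these marker counts.

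In most of a mammalian genome, DNase I sites are scattered: a promoter or enhancer is open over a short interval, and long stretches of closed chromatin follow. The genes at the segments have unrelated roles. Mdm2 encodes the ubiquitin ligase that holds the tumour suppressor p53 at low levels, and it was first cloned from amplified DNA of a transformed mouse 3T3 derivative. Cpm encodes the membrane-bound carboxypeptidase M, Cpsf6 a subunit of the complex that selects polyadenylation sites, Nup107 a scaffold protein of the nuclear pore, and Slc35e3 a member of a family of sugar-nucleotide transporters. Lyz2 encodes the lysozyme of macrophages, Lyz1 that of intestinal Paneth cells, Ifng interferon gamma of T and NK cells, and Lin7a a scaffold protein of cell junctions.

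Printed first are 150-base peaks from the segments, as examples. For each segment a peak with the highest value of replicate 2 is given. Then come the peak with a match to the p53 motif and 3 peaks with a match to the C/EBP motif. The latter is the motif of factors that drive fat cell differentiation. Peaks with a p53 or C/EBP match were picked for it, so the set is not typical of the segment peaks. Several peaks tied at 150 in replicate 2, 8 in segment 1, 144 in segment 3 and 8 in segment 4, and the one with the highest overlapping peak of replicate 1 was taken, then the first by position. Positions are those of replicate 2, and the value given for replicate 1 is that of its highest overlapping peak. All are given for the forward strand of GRCm38 (mm10) and touch no annotated UTR. Capitals mark the match to a motif named below, and a sequence without capitals held no match to any of the 11 motifs searched.

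The peak shown for segment 1, chr10:107241016-107241165, is intergenic and had deposited values of 134 in replicate 1 and 150 in replicate 2, where 150 is the highest value in either list.

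Segment 1, among the highest peaks: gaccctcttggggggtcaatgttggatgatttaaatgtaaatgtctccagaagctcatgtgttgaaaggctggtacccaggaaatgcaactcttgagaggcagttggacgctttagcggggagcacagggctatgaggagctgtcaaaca

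The highest peak of segment 2, chr10:117281976-117282125, lies just inside Lyz2 and had values of 132 and 150.

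Segment 2, highest peak: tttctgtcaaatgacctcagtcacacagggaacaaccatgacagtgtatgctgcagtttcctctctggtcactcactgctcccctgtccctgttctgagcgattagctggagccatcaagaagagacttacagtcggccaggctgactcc

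The peak shown for segment 3, chr10:117709016-117709165, lies in an intron of Mdm2 and had a value of 150 in both libraries.

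Segment 3, among the highest peaks: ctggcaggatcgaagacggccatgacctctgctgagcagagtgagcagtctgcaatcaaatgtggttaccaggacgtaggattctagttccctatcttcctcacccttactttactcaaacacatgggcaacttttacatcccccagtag

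The peak shown for segment 4, chr10:118616336-118616485, is intergenic, had values of 135 and 150 and holds a match to the NFI motif on the reverse strand.

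Segment 4, among the highest peaks: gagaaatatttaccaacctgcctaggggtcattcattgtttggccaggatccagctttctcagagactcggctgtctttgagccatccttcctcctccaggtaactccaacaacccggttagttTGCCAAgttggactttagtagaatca

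The only segment peak of each library with a p53 match, chr10:117762556-117762705, lies in an intron of Nup107 and had values of 117 and 142. Repeat sequence of the reference makes up 54.7% of its bases, which the lower case printed here does not mark.

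Segment 3, p53 match: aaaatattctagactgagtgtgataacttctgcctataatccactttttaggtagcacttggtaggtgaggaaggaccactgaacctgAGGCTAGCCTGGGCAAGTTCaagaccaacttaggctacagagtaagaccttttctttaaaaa

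Of the peaks with a C/EBP match, chr10:117746436-117746585 lies upstream of Slc35e3 (150 in both libraries), chr10:117531776-117531925 is intergenic (146 and 150) and chr10:117738796-117738945 lies in an intron of Slc35e3 (142 and 150).

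Slc35e3 promoter, C/EBP match: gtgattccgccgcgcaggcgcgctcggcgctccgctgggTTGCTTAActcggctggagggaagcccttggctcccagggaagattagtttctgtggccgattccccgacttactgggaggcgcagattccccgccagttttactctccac
Intergenic, C/EBP match: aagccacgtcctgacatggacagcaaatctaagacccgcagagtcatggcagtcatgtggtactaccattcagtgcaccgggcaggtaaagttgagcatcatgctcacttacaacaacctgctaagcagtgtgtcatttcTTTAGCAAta
Slc35e3 intron, C/EBP match: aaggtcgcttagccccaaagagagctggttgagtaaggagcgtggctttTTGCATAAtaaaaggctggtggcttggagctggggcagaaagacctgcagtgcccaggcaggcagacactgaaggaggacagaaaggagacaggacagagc

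The 4 segments formed blocks of closely set, high peaks. Peak density was 18.9 per 10 kb in replicate 1 and 20.1 in replicate 2, a mean of 19.5 ± 0.896 (SD, n = 2). In the flanks it was 0.627 and 1.18 per 10 kb, so the segments were 30.1 and 17.1 times as dense, a mean of 23.6 that became 69.8 when only the stronger 50% of each list was counted. Over all assembled chromosomes density was 0.491 and 0.795. The segments held 12.4% and 8.41% of all peaks of chromosome 10. The plot of values along the segments shows the blocks standing well above the sparse, low peaks around them.

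**Figure D1:**
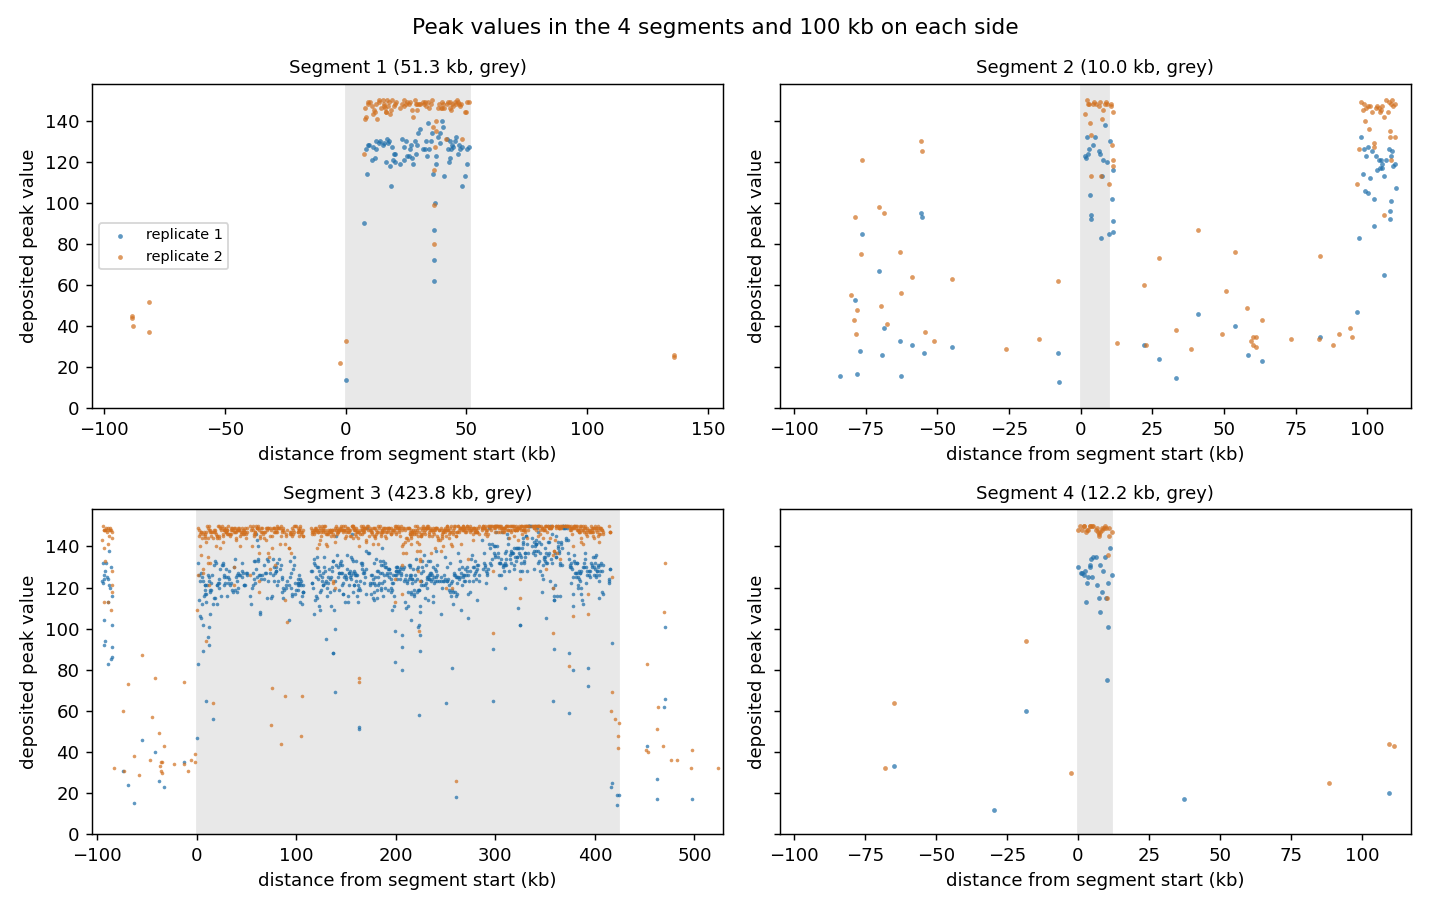
Deposited peak value (vertical axis, highest value 150) against distance from the segment start in kb (horizontal axis) for the 4 segments (grey) and 100 kb on each side; each point is 1 peak of replicate 1 (blue) or replicate 2 (orange). Median values inside the segments were 126 in replicate 1 and 148 in replicate 2, against 33 and 43 in the flanks, and the points left of segment 3 at about the same height belong to segment 2.

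The deposited peak value was compared by rank, since it has a ceiling and differs in level between the lists (median 45 in replicate 1 and 69 in replicate 2). The median segment peak stood at percentile 99.2 of its list in replicate 1 and 99.6 in replicate 2. In replicate 1, 874 segment peaks (93.2%) were in the top 5% of their list, a rank that 5.11% of all peaks reached because of ties. In replicate 2 it was 928 peaks (92.7%), against 5.13% of all peaks. Because values of this kind chose the segments, nothing further is read from these shares. The segments also held 544 of the 1395 peaks in the top 1% of replicate 1 and 764 of 2286 in replicate 2. A value of 150 was given to 11 peaks in replicate 1, of which 10 lay in the segments, and to 234 in replicate 2, of which 161 did.

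Segment 1 (51.31 kb) held 82 peaks in replicate 1 and 90 in replicate 2, or 16.0 and 17.5 per 10 kb. Their values ran from 14 through a median of 126 to 140 in replicate 1 and from 33 through 147.5 to 150 in replicate 2. All but 1 of its peaks in each library were intergenic, and the nearest coding genes were Acss3, an acyl-CoA synthetase gene, at 81.8 kb and Lin7a at 14.9 kb. Its left flank held 0 and 6 peaks and its right flank 0 and 2, none above 52.

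Segment 2 (10 kb) held 17 and 18 peaks, with values from 83 through a median of 123 to 138 and from 113 through 148 to 150. It covers 46.5% of Lyz2, at its 5′ end, and 43.5% of Lyz1. Of its peaks, 8 and 10 were intergenic. Its share of peaks in the top 5% was the lowest of the 4 segments in both libraries, at 76.5% and 83.3%.

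Segment 3 (423.81 kb) held 812 and 865 peaks, or 19.2 and 20.4 per 10 kb, with values from 14 through a median of 126 to 150 and from 26 through 148 to 150. Coding genes cover 32.7% of it. Inside them the density was 19.6 and 20.2 per 10 kb and between them 19.0 and 20.5, so the block ran through genes and intergenic sequence alike. Median values inside genes were 129 and 148, and outside them 125 and 147.

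Segment 4 (12.15 kb) held 27 and 28 peaks, the highest density of the 4 at 22.2 and 23.0 per 10 kb. Values ran from 75 through a median of 126 to 139 and from 115 through 148 to 150. Every one of its peaks was intergenic. Ifng lay 165 kb away on one side and Dyrk2, a protein kinase gene, 232 kb away on the other.

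The borders of the blocks, placed at the outermost peak in the top 5% of each list, agreed between the libraries to within 300 bp. That definition was chosen after the values had been seen. On the left, the first such peaks of the 2 libraries started 300 bp apart in segment 1, 40 bp apart in segments 2 and 3 and 80 bp apart in segment 4. On the right, the last such peaks ended 40, 20, 0 and 20 bp apart in segments 1 to 4. The planned definition, the run with the most peaks joined below 2 kb, gave other borders. By it segment 2 ended at 117291405 in replicate 1 and at 117292845 in replicate 2. Segment 3 was split at its breaks, with a run of chr10:117490996-117659925 in replicate 1 and chr10:117491036-117659985 in replicate 2. In segment 1 the run began at 107228056 in both libraries. In segment 4 it ended at the outermost top 5% peaks.

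At 5 of the 8 borders high peaks were followed directly by low ones or by a long gap, and at 3 the values stepped down, with distances given from centre to centre. At the right end of segment 3, the last high peak, chr10:117791396-117791545, had values of 129 and 147, and the next peak, 780 bp further on, had 23 and 60. Right of segment 1 the next peak lay 133 kb away in replicate 1 (value 17) and 84.6 kb away in replicate 2 (value 26). Left of segment 4 it lay 18.4 kb away in replicate 1 (value 60) and 2.52 kb away in replicate 2 (value 30), and right of it 25.2 kb (value 17) and 76.3 kb (value 25). Left of segment 2 the next peak lay 8.98 kb away in replicate 1 (value 13) and 9.18 kb away in replicate 2 (value 62). The left ends of segments 1 and 3 and the right end of segment 2 were the graded ones. The next peak outward of segment 1 had 90 and 124, at 560 and 260 bp, and that of segment 2 had 91 and 121, at 140 and 120 bp. At the left end of segment 3 the peaks of replicate 1 went from 47 at chr10:117376116-117376265 to 83 at chr10:117376936-117377085 and 132 at chr10:117377636-117377785.

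The stated limits of the segments and the borders of the blocks did not coincide everywhere. Segment 1 begins with a lone low peak (14 in replicate 1 and 33 in replicate 2), followed by 7450 bp without a peak in either library before chr10:107213056-107213205 (90 and 124). The rightmost part of segment 3, beyond its last high peak, held peaks of 14 to 93 in replicate 1 and of 42 to 125 in replicate 2. Segment 2 instead stops short: a peak with its centre just past its end, chr10:117289956-117290105, had values of 85 and 109, and high peaks went on to position 117291185 in replicate 1 and 117291205 in replicate 2. These 2 and 3 peaks were the only flank peaks in the top 5%. On their left sides, segments 2 and 3 start before their first peaks in the top 5%, which began at 117281316 and 117281356 in segment 2 and at 117377636 and 117377596 in segment 3.

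Within segment 3 the peak values were not level. A stretch of 9 consecutive 10 kb windows, chr10:117666116-117756115, had a median value of 130 or more in every window of replicate 1, a limit set after the values had been seen. The window medians of replicate 1 were 130.5 to 141.5 there and 116.5 to 129.5 in the other 33 windows. All 10 segment peaks of value 150 in replicate 1 lay in that stretch. Replicate 2, which did not set the limit, had window medians of 148.5 to 150 in the stretch and 145 to 149 in the other windows. These ranges overlap and lie close to the ceiling of 150. Its median over peaks was 149 in the stretch and 147 in the rest of the segment. It had 75 peaks of value 150 among the 178 peaks of the stretch (42.1%) and 69 among the 687 peaks of the rest (10.04%). Peak density was 20.9 and 19.8 per 10 kb in the stretch and 18.7 and 20.6 outside it. The stretch takes in the 3′ end of Cpm, all of Mdm2 and Slc35e3, and the 3′ end of Nup107.

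**Figure D2:**
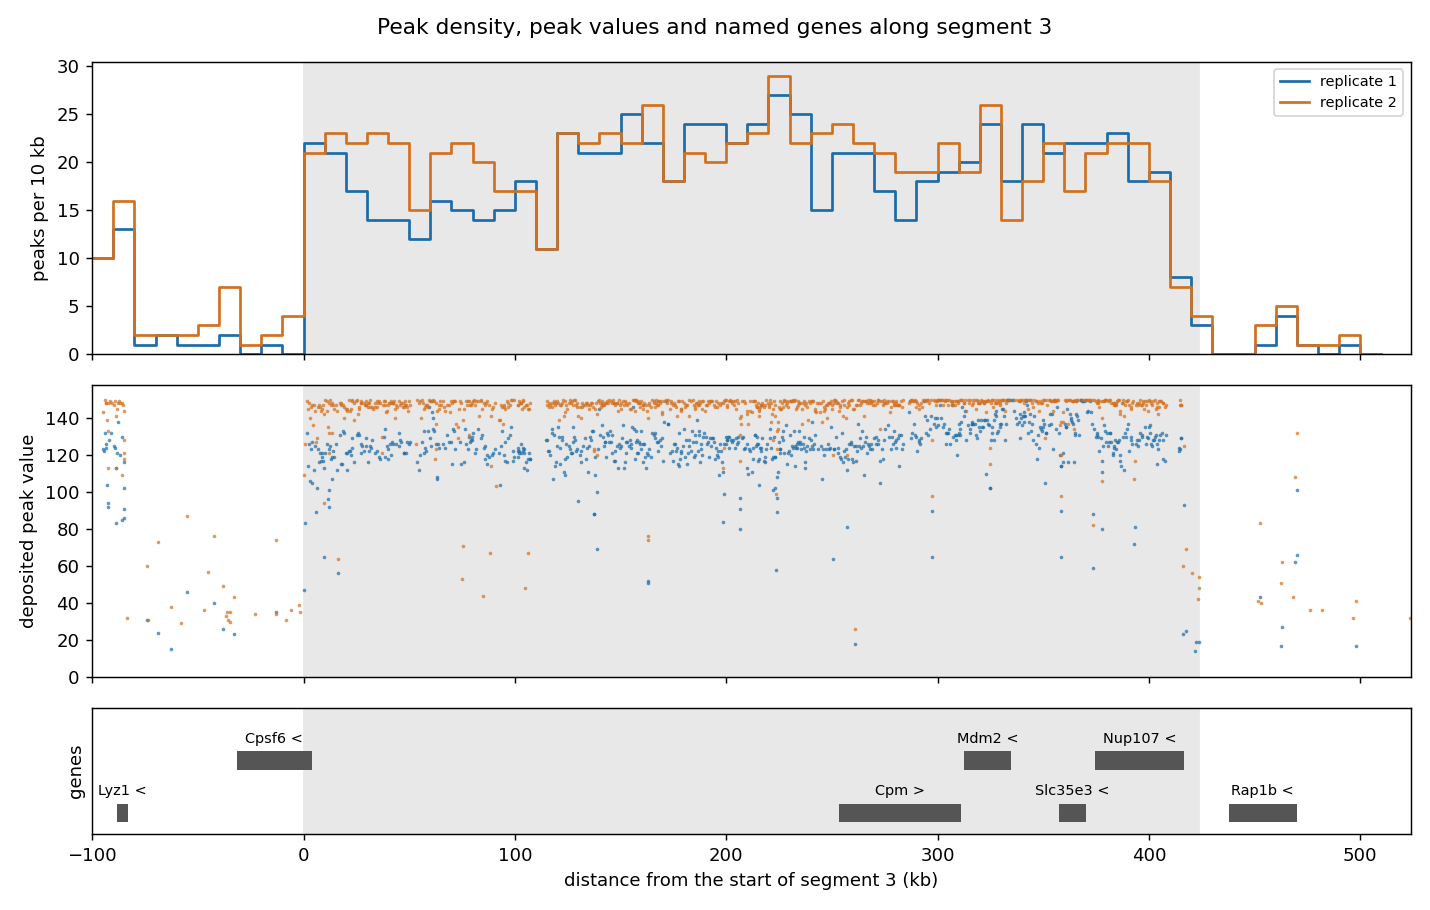
Peaks per 10 kb (top), deposited value of each peak (middle) and the extent of named genes with < or > for the direction of transcription (bottom) against distance from the start of segment 3 in kb; the segment is grey, replicate 1 blue and replicate 2 orange. Density was 7 to 29 peaks per full window over both libraries, and the values of replicate 1 were highest between 290 and 380 kb, around Mdm2 and Slc35e3.

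Over the 42 full 10 kb windows of segment 3, replicate 1 had 8 to 27 peaks (median 20.5) and replicate 2 had 7 to 29 (median 22). The lowest window in both, chr10:117786116-117796115, holds the right border. Breaks of 1500 bp or more without a peak were few: 2 in segment 1 in each library, 10 and 9 in segment 3, and 0 in segments 2 and 4. The longest, chr10:117483346-117490995 in replicate 1 and chr10:117483406-117491035 in replicate 2, was 93.6% and 94.0% repeat sequence (lower case in the reference). Only 13.2% and 12.9% of the 32-base words starting in it occur once in the assembled chromosomes, against 86.8% over segment 3. This measure of uniqueness was added after the data had been seen, and its part in the breaks was not tested.

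Other breaks lay in sequence that is mostly unique. A break of 5830 bp at chr10:117784346-117790175 in replicate 1, within Nup107 and close to the right border, had 72.3% unique words, and hotspots covered 9.13% of it. In replicate 2 a break of 2210 bp at chr10:117710186-117712395 took in the start of Mdm2 with 97.96% unique words. Hotspots of replicate 2 covered all of that break (100%), and replicate 1 had 3 peaks in it. Here a region without called peaks lay within hotspots, the wider call, of the same library.

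The median distance between neighbouring centres was 460 bp in replicate 1 (quartiles 320 and 620) and 440 bp in replicate 2 (320 and 580). By segment the medians were 500 and 460 bp in segment 1, 420 and 500 in segment 2, 460 and 440 in segment 3, and 410 and 360 in segment 4. In other 10 kb windows with 10 or more peaks, the median was 460 bp (300 and 680) and 480 bp (300 and 720). The medians were thus close, and the segments differed in the tails: distances over 1000 bp made up 4.50% and 2.51% of pairs in the segments and 11.6% and 12.6% in the other dense windows. Such windows were chosen by count, as the segments were in part, so this is a description.

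**Figure D3:**
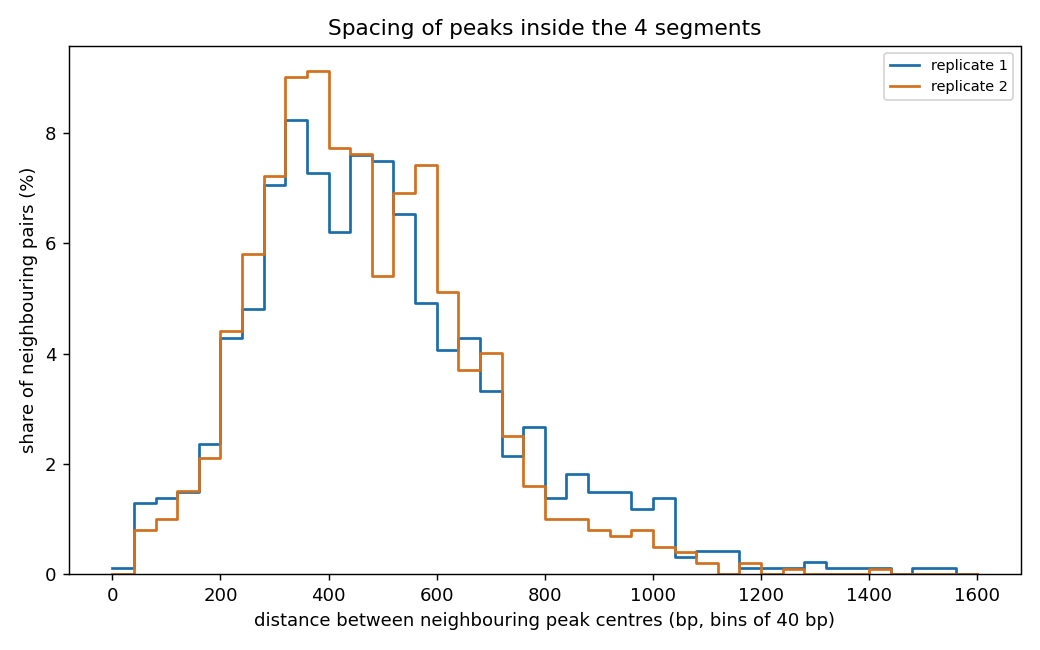
Share of neighbouring peak pairs (vertical axis, %) by the distance between their centres (horizontal axis, bins of 40 bp) inside the 4 segments, for replicate 1 (blue, 934 pairs) and replicate 2 (orange, 997 pairs); the few longer distances lie beyond the right end of the axis. Both curves are broad, with quartiles of 320 and 620 bp and of 320 and 580 bp.

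Windows as dense as the segments occurred elsewhere, and their peaks were lower. Counting 10 kb windows with 10 or more peaks, replicate 1 had 292 and replicate 2 had 1234, of which 47 and 49 overlapped the segments. Outside the segments such windows reached 23 and 34 peaks, against 28 and 29 within them. The median percentile of the peaks in an outside window was 55.9 and 55.7 in the typical window. Its highest value was 94.4 in replicate 1, at chr7:127470001-127480000 with 11 peaks, and 97.4 in replicate 2, at chr5:123130001-123140000 with 10 peaks. Windows with a median percentile above 98, a limit just above that highest value, numbered 45 and 47, all in the segments. That 0 lay outside follows from the limit, and the segments were chosen by peak density and height, so this is a description. The exceptions within the segments were 2 windows in each library, all near the ends of segment 3: 97.7 and 89.8 in replicate 1, and 94.2 and 50.1 in replicate 2, and the lower of each pair is chr10:117790001-117800000, which holds its right border.

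In replicate 2, 28 outside windows with 10 or more peaks had a median percentile of 90 or more, a limit chosen after the values had been seen, against 2 in replicate 1. The longest adjoining run of them, chr2:77880001-77950000, took in 7 windows of 17 to 24 peaks, with window medians of 91.3 to 95.5. Its density in replicate 2, 20.6 peaks per 10 kb, was that of the segments, with 35.4% of its peaks in the top 5%. In replicate 1 the same 70 kb held 6.43 peaks per 10 kb, with a median percentile of 90.2. So in replicate 2 a block both dense and high was present on chromosome 2, below the segments in height. The windows were picked out by the same values that chose the segments, and this comparison is a description.

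**Figure D4:**
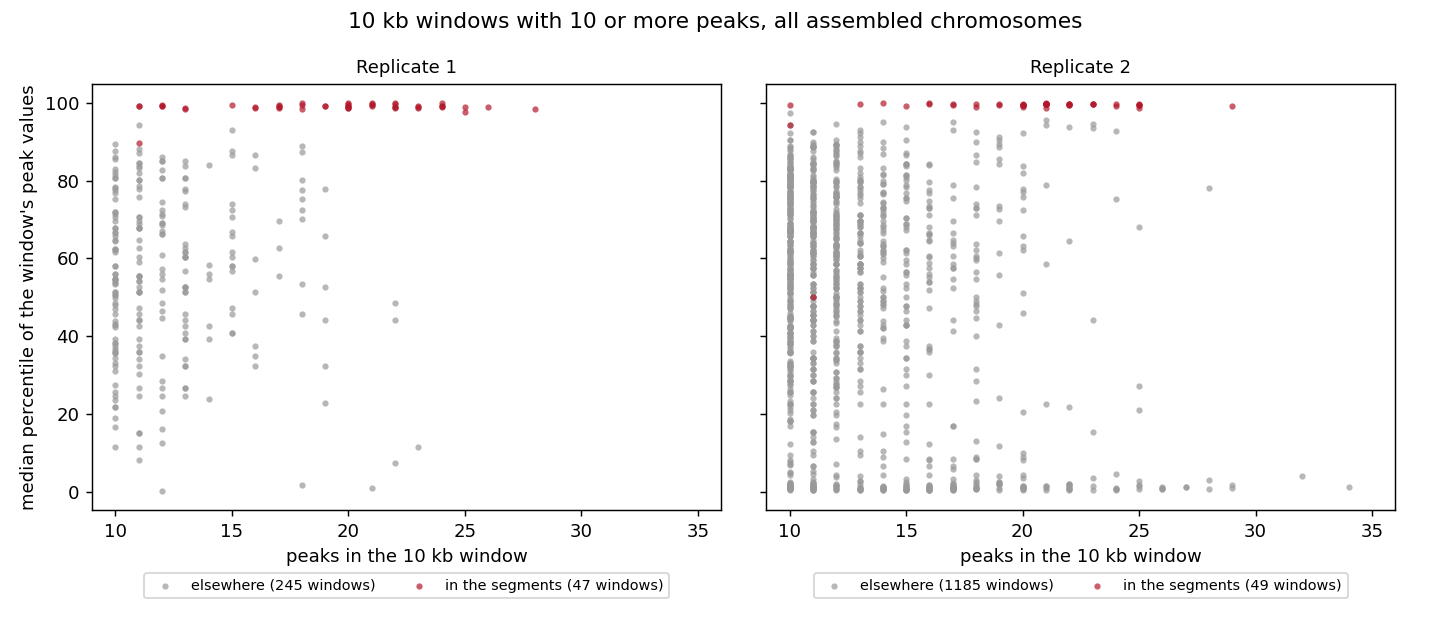
Median percentile of the peak values in a window (vertical axis) against the number of peaks in it (horizontal axis) for all 10 kb windows with 10 or more peaks, replicate 1 at left and replicate 2 at right. Windows in the segments (red, 47 and 49) have medians of 99.2 and 99.6 and, at the lowest, 89.8 and 50.1, while the other windows (grey, 245 and 1185) reach 94.4 and 97.4 at most.

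Hotspots, the wider regions of raised signal, covered most of the length of each segment. After merging, they covered 79.1% and 79.3% of segment 1, 77.2% and 77.2% of segment 2, 79.7% and 89.5% of segment 3 and 95.2% and 95.2% of segment 4. In the flanks, cover ran from 0 to 8.62%. The deposited hotspot value, the −log10 of a q value, has a ceiling of 100. In replicate 1, 396 of 414 segment hotspots (95.7%) stood at it against 46.7% of all hotspots, and in replicate 2, 369 of 373 (98.9%) against 48.5%. Among hotspots of 1 kb or more the ceiling was nearly as common elsewhere. All 122 and 152 such hotspots of the segments stood at it (100%), and 98.9% of those outside did in each library.

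Many segment hotspots had the same limits in both libraries to the base. In all, 265 hotspots shared both start and end, which is 64.0% of those of replicate 1 and 71.0% of those of replicate 2, against 1.19% and 0.755% of all hotspots. Among hotspots of 1 kb or more 100 of 122 in replicate 1 and 100 of 152 in replicate 2 had identical limits. Elsewhere 43 of 7433 and 43 of 14402 did. The widest segment hotspot, chr10:107242567-107251799 in segment 1 (9233 bp), and the widest of segment 3, chr10:117565084-117573882 (8799 bp), were identical in both libraries. The widest outside the segments were 8923 bp on chromosome 19 in replicate 1 and 12069 bp on chromosome 10 in replicate 2.

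The peaks, in contrast, were placed less alike in the libraries than other high peaks. Of the segment peaks, 84.1% in replicate 1 and 78.8% in replicate 2 overlapped a peak of the other library by at least 1 bp, 789 peaks in each. Over all peaks these shares were 90.3% and 55.5%, the list of replicate 2 being the longer. Among the other peaks in the top 5% of each list, 98.6% and 97.9% overlapped. The same position to the base was taken by 17.3% and 16.2% of segment peaks but by 36.1% and 36.7% of the other top peaks. Shared segment peaks had a median offset of 40 bp between the libraries, against 20 bp for the other top peaks, on a grid of start positions of 20 bp. Identical limits were thus more frequent among segment hotspots than identical positions among segment peaks.

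Sequence of the segment peaks was not used to choose them. Their mean GC content was 46.3% in replicate 1 and 46.6% in replicate 2, against 49.8% and 49.4% for all peaks and 59.1% and 59.3% for the other top 5% peaks. The 43 and 81 flank peaks had 46.3% and 46.1%, so this level was shared by the peaks nearby. Windows of 150 bp between the peaks of the same segments (1466 windows) had 43.0%. Repeats made up 22.5% and 25.1% of the bases of segment peaks, 11.6% and 13.4% of all peaks, 4.75% and 5.38% of the other top peaks, 14.6% and 18.7% of the flank peaks and 43.2% of the windows between. Unique 32-base words made up 94.7% and 94.0% of segment peaks and 77.9% of the windows between them.

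Promoters were few among them. Within 1000 bp of a coding start site lay 28 segment peaks of replicate 1 (2.99%) and 25 of replicate 2 (2.50%), against 19.7% and 14.6% of all peaks. This share can only be as large as the number of genes in the segments allows.

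Motifs of transcription factors were searched as plain letters on both strands of each 150-bp peak, where N is any base: AP-1 as TGANTCA, C/EBP as TTGCNNAA, TEAD as GGAATG, glucocorticoid receptor as ACANNNTGT, ETS as CCGGAAG, PPAR-RXR as AGGTCANAG, EBF as TCCCNNGGG, CTCF as GGNGGCAG, NFI as TTGGCA, SP/KLF as GGGCGG, and the p53 motif of 2 adjoining copies of its decamer. Matches of different motifs may overlap. At least 1 motif was found in 37.0% of segment peaks in replicate 1 and 36.8% in replicate 2. It was found in 56.4% and 54.5% of all peaks, in 71.0% and 70.6% of the other top 5% peaks, in 37.2% and 42.0% of the flank peaks, and in 32.3% of the windows between the segment peaks. The share in segment peaks was thus close to that in the peaks and windows around them. No motif was found in 591 and 633 segment peaks.

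Against the other top 5% peaks, the promoter motifs SP/KLF and ETS showed the widest gaps, and against all peaks NFI did. SP/KLF was present in 2.45% and 2.80% of segment peaks, 41.0% and 39.1% of the other top peaks, 9.26% and 6.96% of all peaks and 2.59% of the windows between. ETS was present in 0.746% and 0.699% of segment peaks in 12.6% and 11.3% of the other top peaks and in 2.16% and 1.59% of all peaks. NFI, a motif common in fat cell enhancers, was present in 7.78% and 8.09% of segment peaks, 18.5% and 18.0% of all peaks, 14.0% and 13.6% of the flank peaks and 6.07% of the windows between.

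C/EBP matches were in 5.44% and 5.49% of segment peaks, 11.5% and 11.3% of all peaks and 6.00% of the windows between. Segment peaks thus stood near the level of the windows between them. The few flank peaks stood higher, at 11.6% (5 of 43) and 7.41% (6 of 81). AP-1, the motif of Fos and Jun factors, stood above the windows between, at 5.86% and 5.79% against 2.86%. It was in 4.71% of like windows between the flank peaks, in 0 of 43 and 3 of 81 flank peaks and in 8.51% and 8.80% of all peaks. EBF also stood above the windows between, at 2.03% and 2.00% against 0.477% (7 of 1466), with 1.58% in the flank windows. It stood below the 3.68% and 3.64% of all peaks and the 4.65% (2 of 43) and 4.94% (4 of 81) of flank peaks. The p53 motif was in 1 segment peak in each library (0.107% and 0.0999%), the Nup107 intron peak printed above. Over all peaks it was in 14 in replicate 1 (0.0105%) and 29 in replicate 2 (0.0134%). Nothing is read from a share that rests on 1 peak.

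Among the genes, Mdm2 lay wholly in segment 3 and had 47 peaks in its body in replicate 1 and 48 in replicate 2. Their values ran from 102 through a median of 137 to 150 and from 115 through 149 to 150, so no peak in Mdm2 was low in either library. Density including 1 kb on each side was 20.9 per 10 kb in both. At its annotated start, at position 117710758, replicate 1 had a peak centred 33 bp upstream with value 150. The nearest peak of replicate 2, also at 150, lay 647 bp downstream, beside the break described above.

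Slc35e3, next to Mdm2, had 29 and 23 peaks in its body, with medians of 137 and 149. Its density was 23.1 and 18.4 per 10 kb, the widest difference between the libraries among the genes wholly inside. A peak of value 150 lay 126 bp upstream of its start in replicate 1 and 146 bp upstream in replicate 2.

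Cpm had the most peaks of any gene here, 108 and 120 over 57.9 kb, with medians of 128 and 149 and a density of 18.5 and 20.7 per 10 kb. One of them, chr10:117636976-117637125 in an intron, stood apart with values of 18 and 26. The peaks nearest its start lay 429 and 229 bp upstream, with values of 121 and 144.

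Nup107 reaches to the right border of the block, with 79 and 81 peaks and medians of 128 and 148. Its start, at position 117792705, lies past the last high peak. The peak there, 106 bp upstream in both libraries, had values of 93 and 125, at percentiles 89.8 and 90.9, and 2 neighbours within 1000 bp in each library were lower, down to 23 and 60.

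Cpsf6 crosses the left border, with 11.0% of the gene in segment 3, at its 5′ end. It had 9 and 15 peaks in its body, from 35 to 132 and from 31 to 149. The peak at its start, centred 4 bp downstream, had values of 127 and 147. Density over the whole gene was 2.95 and 4.55 per 10 kb.

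Lyz2, with 46.5% in segment 2, had 3 and 2 peaks in its body, all from 122 to 132 in replicate 1 and from 143 to 150 in replicate 2. Within 1000 bp of its start lay 6 and 5 peaks. Of the 8 myeloid marker genes only Spi1 had a promoter peak in both libraries. Lyz1 had 9 and 11 peaks in its body with medians of 116 and 144. At its start there was no peak in replicate 1 and 1 low peak (value 32) in replicate 2.

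Lin7a and Ifng lay outside the blocks and did not share their density. Lin7a, 150 kb long, had 3 and 5 peaks in its body, of 15 to 18 and of 25 to 47, and 0 peaks within 1000 bp of its starts. Ifng had 0 peaks in its body and at its start in either library. The neighbours beyond the borders had few peaks: Rap1b, a small GTPase gene 13.9 kb right of segment 3, had 4 and 7 peaks and start-site values of 101 and 132, and 9530003J23Rik, a lysozyme-like gene 41.3 kb left of segment 2, had 1 and 1.

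Genes with like functions elsewhere did not reach the density of the block. Of 34 such genes, all 34 were annotated and 33 lay outside the segments, with Lyz1 the exception. The list held the p53 pathway (Trp53, Mdm4, Cdkn1a, Ccng1, Bbc3, Bax and Sesn1) and nuclear pore partners of Nup107. It also held polyadenylation factors, other carboxypeptidases, Slc35e and Lin7 relatives, and genes of interferon gamma signalling. Their density ran from 0 to 6.77 per 10 kb with a median of 1.39 in replicate 1, and from 0 to 8.47 with a median of 2.24 in replicate 2. The p53 target Bbc3 was highest in both. Mdm4, the closest relative of Mdm2, had 0.547 and 0.958, and p53 itself (Trp53) had 3.70 and 5.18. None was over 10, whereas Mdm2, Cpm, Slc35e3 and Nup107 were at 18.4 or more in both libraries. Those genes lie wholly in a segment chosen by peak density, so this difference follows from that choice and is a description. A start-site peak was present at 25 and 26 of the 33 genes, and 11 and 14 had one in the top 5%. No share over all coding genes was taken beside these counts, so nothing is read from them.

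**Figure D5:**
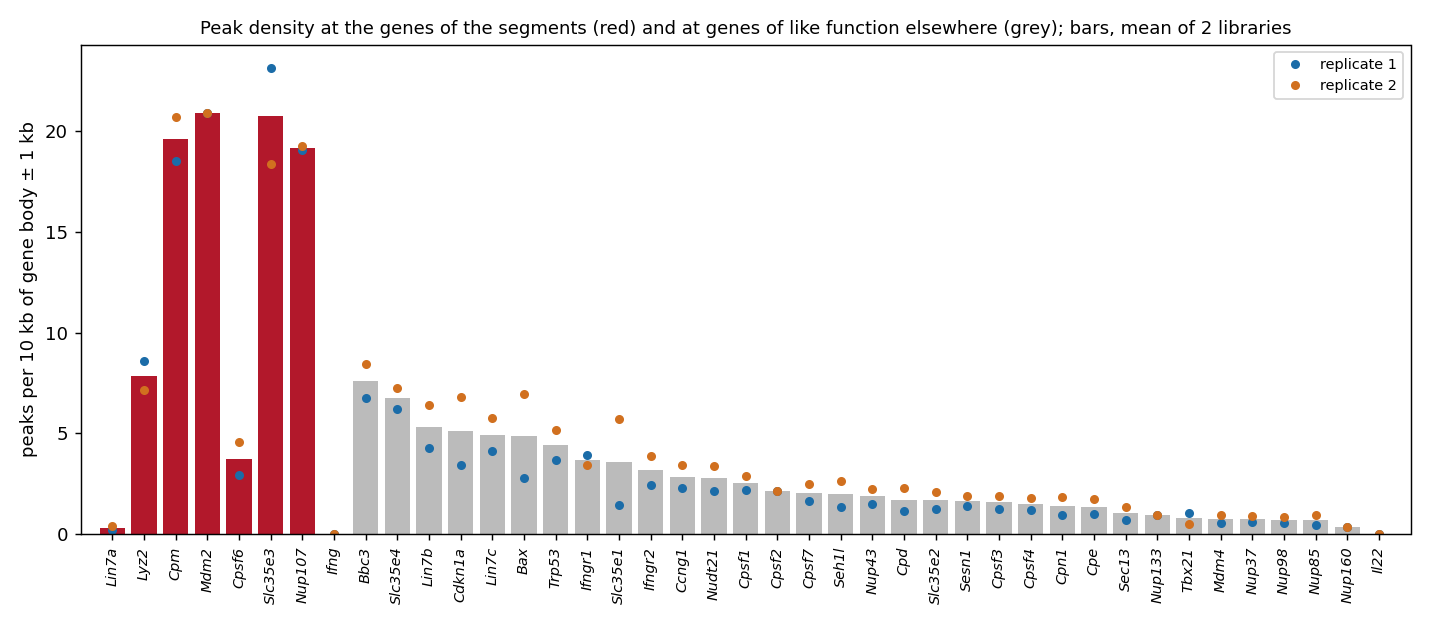
Peaks per 10 kb of gene body with 1 kb on each side (vertical axis) for the 8 genes at the segments (red) and 33 genes of like function elsewhere (grey); bars are the mean of the 2 libraries and points the single libraries. Cpm, Mdm2, Slc35e3 and Nup107, which lie wholly in a segment chosen by peak density, stand at 18.4 or more. Every grey gene stands at 8.47 or less, and Lin7a and Ifng stand at or near 0.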

How the data were processed

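A peak list and a hotspot list per library were analysed for 2 libraries of 1 group, on mm10, per the labels. Regions were called per library from 1 alignment file, per the file lists deposited beside them. Caller, aligner, filters and depth were not given in the sources used here, nor whether calling masked repeated sequence or allowed for regional copy number. The depth behind each value is thus unknown. Copy number was not measured here. Each deposited 150-bp peak carries a signal from 1 to 150, of unstated scaling. Each deposited hotspot carries a −log10 q value from 1.3 to 100. The deposited hotspot score column was not used for a result.

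Identical peak lines (20 and 33) were counted once. A peak belonged to a segment by its centre and a hotspot by any overlap. The percentile of a peak is its rank in its own list over 21 chromosomes. Genes are GENCODE M21, and sequence is the GRCm38 reference. Runs for segment edges joined centres less than 2 kb apart. Values are means ± SD over the libraries, and no test was made, since there is 1 group and the members were chosen by measured values. The calculations were tested on simulated data. Named genes were the 8 given with the segments, other coding genes overlapping them and the nearest on each side. Named peaks were the highest, the first and last, those just outside, those at start sites, and others chosen after their values were seen. Members and lists were chosen with earlier results of these data known. Python 3.11.15 with numpy 2.4.6, pandas 2.3.3, scipy 1.17.1, pysam 0.24.0 and matplotlib 3.10.9, and samtools 1.23.1, were used. Alternatives left out each library, the longest segment or the weaker 50% of peaks, or changed windows, flanks, overlap and joining distance.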

Additional observations from a re-analysis of the deposited data

How the results depend on the processing

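Each value below is the mean over the 2 libraries. Leaving out the longest segment moved peak density to 17.8 per 10 kb from 19.5, median spacing to 480 bp from 450, the share of overlapping peaks to 87.9% from 81.5%, the promoter share to 4.22% from 2.74%, GC to 42.9% from 46.4% and repeats to 20.7% from 23.8%. Using the stronger 50% of each list moved the density ratio of segments to flanks to 69.8 from 23.6 and the median density at genes of like function to 1.10 from 1.82 per 10 kb. Requiring an overlap of at least 50% of each peak gave 60.8% overlapping peaks. Start-site windows of 500 and 2500 bp gave promoter shares of 1.29% and 5.64%. The summed length of the longest run in each segment was 220520 bp with peaks joined below 2 kb, 141630 bp below 1 kb, 361190 bp below 5 kb and 237065 bp with hotspots, and 479170 bp with top 5% peaks joined below 10 kb, a setting chosen after seeing the data. The joining distance sets this length by construction. For the other moves the cause was not tested. Of the remaining values of these results, 46 moved by no more than the SD over the libraries. Those that leave out 1 library could not do otherwise, since with 2 libraries that shift is always below the SD. Some others, such as the central 150 bp of 150-bp peaks, repeat the main value by construction. The count is therefore no measure of stability.

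Leaving out 1 library leaves 1 list, so its values are those of the other library: density 18.9 to 20.1, density ratio 17.1 to 30.1 and overlap 78.8% to 84.1%. No paired analysis was possible because there is only 1 group. The ceilings of both deposited values limit how far the highest regions can be ranked.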
